A study of Mus musculus with 10 samples.

Results

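Enteroendocrine (EE) cells of mouse intestinal organoids are described here, as the cells that the deposited annotation places in its EE class. They were 664 of the 22139 annotated cells of 8 organoid libraries and of the 25204 annotated cells of the whole series. The study profiled single cells of organoids grown from crypts of the mouse proximal small intestine to compare an ordinary culture with one that raises a regenerative program. ENR-organoids, grown in EGF, Noggin and R-Spondin 1, gave 3 libraries at passages 2, 7 and 3. Hyper-organoids, grown with EGF, FGF2 and R-Spondin 1 conditioned medium plus the compounds VPA, EPZ6438, LDN193189, Pexmetinib and GSK-3 Inhibitor XV, gave 3 libraries at passages 1, 6 and 3. -VE-organoids were grown in the Hyper medium without VPA and EPZ6438 and gave 2 libraries at passages 1 and 6. VPA inhibits histone deacetylases and EPZ6438 inhibits the H3K27 methyltransferase EZH2. The replicate 1 and 2 libraries of Hyper- and -VE-organoids came from ENR-organoids, the replicate 3 libraries of ENR- and Hyper-organoids came from primary crypts, and no label says whether the cultures came from separate mice, so the p-values below measure the spread between these libraries only.

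Enteroendocrine cells are the hormone-making cells of the gut epithelium. They arise from crypt progenitors that switch on the transcription factor Neurog3, pass through stages marked by Neurod1, Pax6 and other factors, and then store peptide hormones or serotonin in granules built with chromogranins. Cells that make cholecystokinin, glucagon-like peptides, GIP, ghrelin, secretin or somatostatin differ in the factors they use, and enterochromaffin cells make serotonin with Tph1 and the tachykinin Tac1.

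Promoters are shown for 4 genes described below. Gcg and Cck, the glucagon precursor and cholecystokinin genes, were lower in Hyper-organoids. Sst, the somatostatin gene, is named among the markers of the class. Basp1, a growth-cone protein gene that the study also counts in its revival stem cell signature, was higher. Each run is 300 bases from RefSeq on GRCm38.p6, 250 before and 50 after the annotated start, written in the direction of transcription. All 4 genes lie on the minus strand. Capitals mark matches on either strand to 3 motifs. The TATA box was searched as TATAAA. An E-box of the type that NEUROD1 binds was searched as CAGATG. The cyclic AMP response element was searched as TGACGTCA.
Gcg, chr2:62483604-62483903: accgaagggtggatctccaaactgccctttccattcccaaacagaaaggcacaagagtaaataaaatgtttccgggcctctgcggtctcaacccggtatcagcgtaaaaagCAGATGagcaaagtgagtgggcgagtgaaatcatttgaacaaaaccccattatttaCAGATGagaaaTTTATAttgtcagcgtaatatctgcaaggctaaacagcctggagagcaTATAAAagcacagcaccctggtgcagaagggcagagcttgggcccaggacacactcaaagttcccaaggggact
Cck, chr9:121495645-121495944: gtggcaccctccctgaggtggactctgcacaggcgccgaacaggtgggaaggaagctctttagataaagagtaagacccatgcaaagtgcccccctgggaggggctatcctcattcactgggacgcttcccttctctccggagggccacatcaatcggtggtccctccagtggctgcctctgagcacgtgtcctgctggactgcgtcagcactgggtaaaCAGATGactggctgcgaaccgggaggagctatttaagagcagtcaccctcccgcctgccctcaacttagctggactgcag
Sst, chr16:23890795-23891094: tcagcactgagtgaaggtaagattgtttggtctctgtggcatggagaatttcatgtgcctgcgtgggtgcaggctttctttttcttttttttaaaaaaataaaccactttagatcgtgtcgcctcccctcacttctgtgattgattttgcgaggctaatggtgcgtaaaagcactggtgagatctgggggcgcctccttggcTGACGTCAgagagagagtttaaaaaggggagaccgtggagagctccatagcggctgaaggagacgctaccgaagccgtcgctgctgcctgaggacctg
Basp1, chr15:25413715-25414014: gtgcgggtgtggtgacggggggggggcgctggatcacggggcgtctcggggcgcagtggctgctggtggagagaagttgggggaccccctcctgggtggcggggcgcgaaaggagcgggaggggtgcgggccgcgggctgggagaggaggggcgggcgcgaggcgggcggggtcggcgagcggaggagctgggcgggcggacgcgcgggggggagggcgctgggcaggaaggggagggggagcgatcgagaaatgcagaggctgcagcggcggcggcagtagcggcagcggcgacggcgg
The Gcg window held CAGATG beginning 139 and 83 bases before the start and TATAAA, on one strand or the other, beginning 72 and 24 bases before it. The Cck window held CAGATG 30 bases before the start, and the Sst window held TGACGTCA 48 bases before it. None of the motifs was in the Basp1 window, which had 38 CG dinucleotides against 7 in the Gcg, 10 in the Cck and 13 in the Sst window and a median of 7 over 32851 promoter windows. Of those windows, 13.6% held TATAAA, 17.2% CAGATG and 1.79% TGACGTCA. A match describes the letters only.

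The annotated class carried the products that define enteroendocrine cells. Chgb, a chromogranin of secretory granules, had 12506 CPM (counts of unique molecular identifiers, UMIs, scaled to a fixed total) in the summed EE cells and 4.08 CPM in goblet (GC) cells. Of 6459 genes compared, 148 were at least 10 times higher in EE cells than in every other class apart from a class of 17 cells labelled TC, among them Cck (6851 CPM), Gip (4981 CPM), Ghrl (2532 CPM), Tac1 (2053 CPM), Gcg (1653 CPM), Chga (1467 CPM), Tph1 (395 CPM), Neurod1 (373 CPM), Fev (286 CPM) and Scg2 (212 CPM). These values describe how the class was drawn and carry no test. Cells with at least 3 UMIs of each of 3 of Chga, Chgb, Neurod1, Neurog3 and Cck numbered 464, of which 458 were EE cells. Sst was at 663 CPM in EE cells and at most 0.662 CPM in any other class, but few cells carried it: 2 libraries had no Sst UMI in EE cells, and in each of the other 6 libraries 99.6% or more of its UMIs sat in 1 cell.

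Depth and purity bear on all that follows. EE cells had a median of 19152.5 UMIs and 4681 genes, below stem (SC) cells at 37497 UMIs and goblet cells at 31927 UMIs, and their summed UMIs ran from 973667 to 2654892 per library. In 54.1% to 87.2% of the EE cells of a library, 3 or more UMIs of each of at least 2 markers of goblet, Paneth or enterocyte cells were present. These UMIs were counted at the full depth of each cell, so a deeper cell meets the rule more easily. Across the libraries, 34 EE cells had more than 40000 UMIs, 28 had fewer than the 1500 genes that the stated filter asks for, and 2 shared a barcode with an annotated cell of another library. Of 8 immune and stromal markers only Pecam1 passed the filter on low counts and it was not called, and of 7 tuft cell markers none passed.

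The share of EE cells among all cells overlapped between ENR- and Hyper-organoids. EE cells made up 3.29%, 3.04% and 2.60% of the cells of the 3 ENR-organoid libraries (mean 2.97%, SD 0.35), 3.05% and 2.07% of the 2 -VE-organoid libraries and 3.45%, 3.04% and 4.34% of the 3 Hyper-organoid libraries (mean 3.61%, SD 0.66). The ranges of ENR- and Hyper-organoids overlapped, and Hyper-organoid replicate 3 was the highest of all. Hyper-organoids were 0.633 percentage points above ENR-organoids (exact two-sided permutation test, p = 0.3, where 3 against 3 libraries cannot go below 0.1) and 1.04 points above -VE-organoids (exact permutation test, p = 0.4, where 3 against 2 cannot go below 0.2). Without Hyper-organoid replicate 3 the difference from ENR-organoids was 0.269 points, and without -VE-organoid replicate 2 the difference from -VE-organoids was 0.553 points. A share falls when other classes grow as well as when EE cells are fewer. Among the secretory cells alone (EE, goblet and Paneth classes) EE cells took on average 29.7% (ENR), 21.7% (-VE) and 36.6% (Hyper) of the class total (exact permutation test for Hyper- against ENR-organoids, p = 0.2). The Hyper-organoid libraries, at 34.1% to 39.3%, lay above both -VE-organoid libraries, at 26.4% and 16.9%, by 15.0 percentage points on average (exact permutation test, p = 0.2, the least possible).

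**Figure D1:**
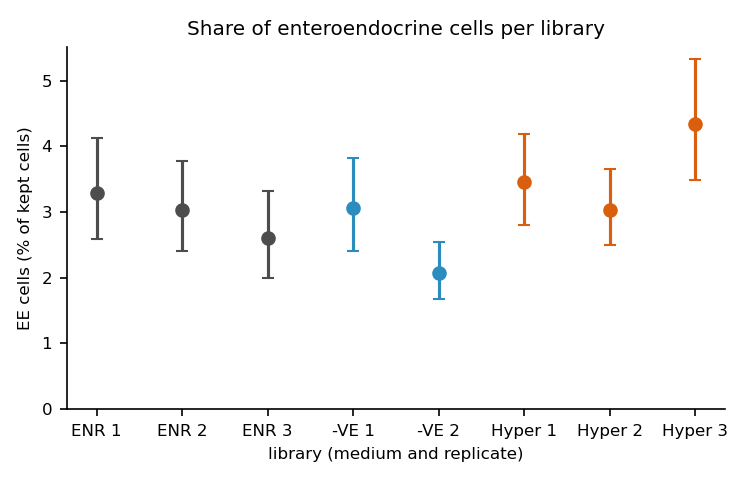
Enteroendocrine cells as a percentage of the annotated cells of each library (y axis), by medium and replicate (x axis). Points are the measured shares and bars their exact 95% binomial intervals, which cover counting error only. The shares run from 2.07% in -VE-organoid replicate 2 to 4.34% in Hyper-organoid replicate 3, and the media overlap.

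The RNA of EE cells differed most between Hyper- and ENR-organoids. UMIs were summed over the EE cells of each library and compared with edgeR's quasi-likelihood test, and calls required at least a 2-fold change with an adjusted p (Benjamini-Hochberg) under 0.05. Of 11050 genes tested, 818 were called between Hyper- and ENR-organoids, 659 higher (5.96% of genes tested) and 159 lower (1.44%) in Hyper-organoids. Between Hyper- and -VE-organoids 443 were called, 389 higher (3.52%) and 54 lower (0.489%) in Hyper-organoids. Between -VE- and ENR-organoids 21 were called, 13 higher (0.118%) and 8 lower (0.0724%) in -VE-organoids, a count that was 54 with DESeq2, 43 with thinned cells and 268 with no filter on low counts. Each pair of comparisons shares a group of libraries. Libraries of the groups compared did not overlap for 33.3% of all genes tested between Hyper- and ENR-organoids. That share was 36.3% between Hyper- and -VE-organoids and 28.1% between -VE- and ENR-organoids. Counts of called genes in the lists below stand against the shares called over all genes. The list members were chosen with earlier results of these data known. The -VE-organoid group had 2 libraries, and without its replicate 2 the 443 calls became 134. Without the EE cells that held markers of another class, 11 to 28 EE cells per library and 5145 genes were left. Then 193 genes were called between Hyper- and ENR-organoids and 24 between Hyper- and -VE-organoids. Only 211 of the 818 Hyper-ENR calls could be tested in the cells left, and 114 were kept. Against -VE-organoids 110 of the 443 calls could be tested and 15 were kept. A gene not named next may not have been tested in the cells left. Among genes described below, Cck, Celf3, Fabp2, Iapp, Ina, Lyz1, Neurod2, Olfm4, Ooep, Pcsk1n, Resp18 and Spink4 lost their Hyper-ENR call then, and Crmp1, Fabp2, Ina, Itm2a, Mapt, Olfm4, Ooep, Pax6, Ptprn, Resp18, Sst and Stmn3 their call against -VE-organoids. The fold changes of some stayed large with these fewer cells: against -VE-organoids the log2 fold change was 6.61 for Itm2a, 6.72 for Stmn3, 2.75 for Mapt, 1.84 for Ptprn, -2.95 for Pax6 and -3.98 for Olfm4, and against ENR-organoids it was -3.10 for Olfm4 and -1.95 for Fabp2. In a summed library a hormone that is held by fewer cells and one that is made at a lower level per cell cannot be told apart, so the share of EE cells holding each hormone is given as well. A cell was taken to hold a gene at 5 or more UMIs after thinning to 10000 UMIs, which left out 57 shallower EE cells and kept 607.

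Among the hormones, Gcg and Cck were lower in Hyper-organoids, and Ghrl, Gip, Sct and Tac1 were not called. Of 17 genes of hormones and amine synthesis tested, 1 was called higher and 3 lower between Hyper- and ENR-organoids, and their median log2 fold change was -0.36 against 0.00 over all genes tested. Against -VE-organoids 1 was higher and 2 were lower, and between -VE- and ENR-organoids none was called by edgeR or DESeq2, with 3 at an unadjusted p under 0.05. Over all genes tested, 5.96% were called higher and 1.44% lower in Hyper- than in ENR-organoids. Against -VE-organoids these shares were 3.52% and 0.489%.

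Gcg encodes the precursor of glucagon-like peptides 1 and 2, made in the gut by L cells. Its level was 4643, 4221 and 1071 CPM in ENR-organoids, 2277 and 518 CPM in -VE-organoids and 19.6, 12.5 and 10.3 CPM in Hyper-organoids. Every Hyper-organoid library was far below every other library, and the ENR- and -VE-organoid libraries overlapped. The log2 fold change was -7.84 against ENR-organoids (SE 0.73, edgeR adjusted p 9.31e-05) and -6.59 against -VE-organoids (SE 0.72, edgeR adjusted p 0.000512). Between -VE- and ENR-organoids it was -1.25 and not called (edgeR adjusted p 0.413). Few cells carried these reads. Gcg holders were 6 of 62, 8 of 68 and 3 of 55 EE cells in ENR-organoids, 4 of 69 and 4 of 84 in -VE-organoids, and 1 of 91, 0 of 100 and 1 of 78 in Hyper-organoids. A count of 0 in 100 cells allows a share of up to 3% on a limit of 3 counts. The mean share was 8.97% in ENR- and 0.794% in Hyper-organoids, with no overlap (exact permutation test, p = 0.1, the least possible, and 0.75 adjusted over 15 hormones), and no stem cell held Gcg at this threshold. Without the cell richest in Gcg in each library, ENR-organoid libraries still had 3170, 2453 and 462 CPM and Hyper-organoid libraries 0, 4.72 and 0 CPM, and -VE-organoid libraries fell from 2197 and 498 CPM to 108 and 142 CPM on the scale of the total count.

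Cck encodes cholecystokinin, the product of I cells. It was at 13928, 8544 and 8622 CPM in ENR-organoids, 10298 and 6258 CPM in -VE-organoids and 669, 4264 and 1662 CPM in Hyper-organoids. All 3 Hyper-organoid libraries were below the other 5. The log2 fold change from ENR-organoids was -2.24 (SE 0.51, edgeR adjusted p 0.0135), and from -VE-organoids it was -1.91 and not called (edgeR adjusted p 0.0658). The call from ENR-organoids was lost without ENR-organoid replicate 1 or Hyper-organoid replicate 3. Without them the edgeR adjusted p was 0.0527 and 0.0554 (log2 fold changes -1.97 and -2.07). Without the cell richest in Cck in each library, raw levels were 11820, 6517 and 3409 CPM in ENR-organoids. They were then 6493 and 3408 CPM in -VE- and 519, 3360 and 1329 CPM in Hyper-organoids. Hyper-organoid replicate 2 then lay only just below ENR-organoid replicate 3 and -VE-organoid replicate 2. The direction turned among cells holding Neurog3, where the log2 change of Cck was 0.837, and among cells free of markers of other classes, where it was 0.178, and neither was called.

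The share of EE cells holding Cck did not follow its level. Holders were 27.4%, 23.5% and 29.1% of EE cells in ENR-organoids, 34.8% and 25% in the 2 -VE-organoid libraries, and 29.7%, 44.0% and 37.2% in Hyper-organoids. The Hyper-organoid shares lay above the ENR-organoid shares by a mean of 10.3 percentage points (exact permutation test, p = 0.1, the least possible, and 0.75 adjusted over 15 hormones), while at most 0.316% of stem cells held Cck. The median holder had 167, 116.5 and 27 thinned UMIs of Cck in ENR-organoids, 28 in both -VE-organoid libraries and 9, 30.5 and 21 in Hyper-organoids. So the summed level was lower and the share of holders was not.

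Which cells held Cck also differed, by pairs of hormones chosen after their values were seen and therefore not tested. Of the cells that held the tachykinin gene Tac1, 2 of 25, 5 of 19 and 6 of 19 also held Cck in ENR-organoids, 10 of 23 and 11 of 32 in -VE-organoids, and 19 of 25, 34 of 39 and 17 of 22 in Hyper-organoids. These are 8.00% to 31.6%, 34.4% to 43.5% and 76.0% to 87.2%, with no overlap between any of the 3 media. Tph1, the enzyme that starts serotonin synthesis, gave the same order. Tph1 holders that held Cck were 1 of 21, 3 of 18 and 4 of 12 in ENR-organoids, 4 of 9 and 7 of 19 in -VE-organoids and 4 of 4, 20 of 22 and 13 of 17 in Hyper-organoids. The Tph1 cells themselves kept their partner in every medium: 88.9% to 100% of them held Tac1 in each library. From the other side, Cck holders that held Ghrl, the ghrelin gene, were 25% to 56.2% in ENR-organoids, 25% and 28.6% in -VE-organoids and 9.09% to 13.8% in Hyper-organoids. Cck holders that held Sct, the secretin gene, were 56.2% to 82.4% in ENR-, 57.1% and 62.5% in -VE- and 25.9% to 43.2% in Hyper-organoids. Of the 17 Gcg holders of ENR-organoids, 16 held Cck. The median Cck count was 1068.5, 447.5 and 800 thinned UMIs in the Gcg holders of the 3 ENR-organoid libraries, against 9, 26 and 16 in the Tac1 holders of the 3 Hyper-organoid libraries.

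**Figure D2:**
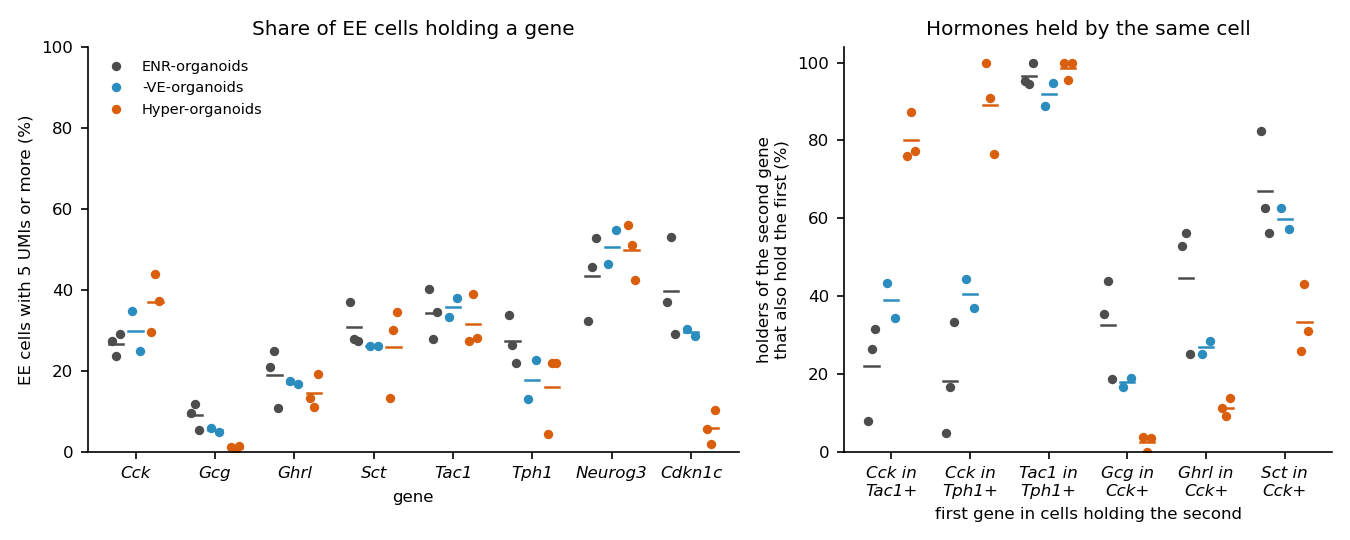
Left, percentage of thinned EE cells with at least 5 UMIs of each gene (y axis) for 8 genes (x axis). Right, percentage of the cells holding one gene that also hold a second (y axis), for 6 pairs (x axis). Points are libraries, bars are means over libraries, and colours are media. Tac1 holders that also held Cck were at most 43.5% in ENR- and -VE-organoid libraries and at least 76.0% in Hyper-organoid libraries, while Tac1 itself was held by 27.5% to 40.3% of EE cells in every medium.

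The enterochromaffin products Tac1 and Tph1 were not called. Tac1 was at 2946, 1479 and 2339 CPM in ENR-organoids, 2394 and 2032 CPM in -VE-organoids and 1325, 2084 and 1857 CPM in Hyper-organoids, and its log2 fold change between Hyper- and ENR-organoids was -0.36 (SE 0.24, edgeR adjusted p 0.354). Tph1 was at 769, 484 and 520 CPM in ENR-organoids, 251 and 380 CPM in -VE-organoids and 72.8, 369 and 276 CPM in Hyper-organoids. Its Hyper-organoid libraries lay below the ENR-organoid ones, with a log2 fold change of -1.31 that was not called (SE 0.42, edgeR adjusted p 0.0605). Ddc, the decarboxylase of the same pathway, differed by -0.73 in log2 units, with an SE of 0.20 and an edgeR adjusted p of 0.0288, under the 2-fold that a call needs.

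Other hormones varied more between libraries than between media. Gip, the product of K cells, was at 2062, 3024 and 13513 CPM in ENR-organoids and 478, 1699 and 9908 CPM in Hyper-organoids, and in Hyper-organoid replicate 1 it came almost wholly from 1 cell (99.9% of 1221 UMIs). Ghrl was at 3602, 3842 and 1392 CPM in ENR- and 1434, 1125 and 4141 CPM in Hyper-organoids (log2 fold change -0.40, SE 0.47, edgeR adjusted p 0.630). Sct was at 1038, 743 and 956 CPM in ENR- and 220, 1522 and 1159 CPM in Hyper-organoids (log2 fold change 0.08, SE 0.47, edgeR adjusted p 0.939). The media overlapped for all 3 genes.

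Sst UMIs came almost wholly from single cells. Sst, made by D cells, was at 141, 0 and 854 CPM in ENR-organoids, 3.03 and 0 CPM in -VE-organoids and 328, 1805 and 2261 CPM in Hyper-organoids. It was called higher than in -VE-organoids (log2 fold change 9.96, SE 2.23, edgeR adjusted p 0.0249) and not against ENR-organoids (2.17, SE 1.09, edgeR adjusted p 0.218). The richest cell of each library held all of its 195, 799, 5 and 4168 UMIs in ENR-organoid replicates 1 and 3, -VE-organoid replicate 1 and Hyper-organoid replicate 3, and 835 of 838 and 3905 of 3906 in the other Hyper-organoid libraries. The call against -VE-organoids was lost without -VE-organoid replicate 1 or 2 or Hyper-organoid replicate 3 (edgeR adjusted p 0.0979, 0.182 and 0.0596) and with cells of at least 1500 genes only. At most 1 thinned cell of a library held Sst, which does not allow a comparison of media.

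Gast, the gastrin gene, was at 14.4, 3.99 and 230 CPM in ENR-organoids and 0.391, 0.462 and 1.09 CPM in Hyper-organoids (log2 fold change -6.81, SE 1.57, edgeR adjusted p 0.0143), with 99.1% of its UMIs in ENR-organoid replicate 3 from 1 cell and the call lost without Hyper-organoid replicate 2 (edgeR adjusted p 0.0503). Without the richest cell of each library Gast was at 8.77, 2.21 and 2.12 raw CPM in ENR- and 0, 0 and 0.536 raw CPM in Hyper-organoids. Pyy, which L cells make beside Gcg, was at 37.0 and 375 CPM in -VE-organoids and 0.391, 12.5 and 5.97 CPM in Hyper-organoids (log2 fold change -5.09, SE 1.06, edgeR adjusted p 0.0171). That call was lost with DESeq2 (adjusted p 0.173) and without -VE-organoid replicate 2 or Hyper-organoid replicate 3 (edgeR adjusted p 0.348 and 0.0678), and between Hyper- and ENR-organoids Pyy was not called (-2.53, edgeR adjusted p 0.186). ENR-organoids had 25.6, 76.6 and 0 raw CPM of Pyy. Without the richest cell of each library Pyy fell from 35.7 and 360 to 10.7 and 94.6 raw CPM in -VE-organoids. Hyper-organoids then had 0, 6.56 and 3.21 raw CPM. Iapp, the islet amyloid polypeptide gene, was called higher in Hyper- than in ENR-organoids (1.85, SE 0.53, edgeR adjusted p 0.0383), lost its call with DESeq2 (adjusted p 0.0912) and without any 1 of ENR-organoid replicates 1, 2 and 3 and Hyper-organoid replicates 2 and 3 (edgeR adjusted p 0.0596 to 0.149), and had 77.8% of its UMIs in Hyper-organoid replicate 2 from 1 cell. Its direction turned without EE cells holding markers of another class.

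**Figure D3:**
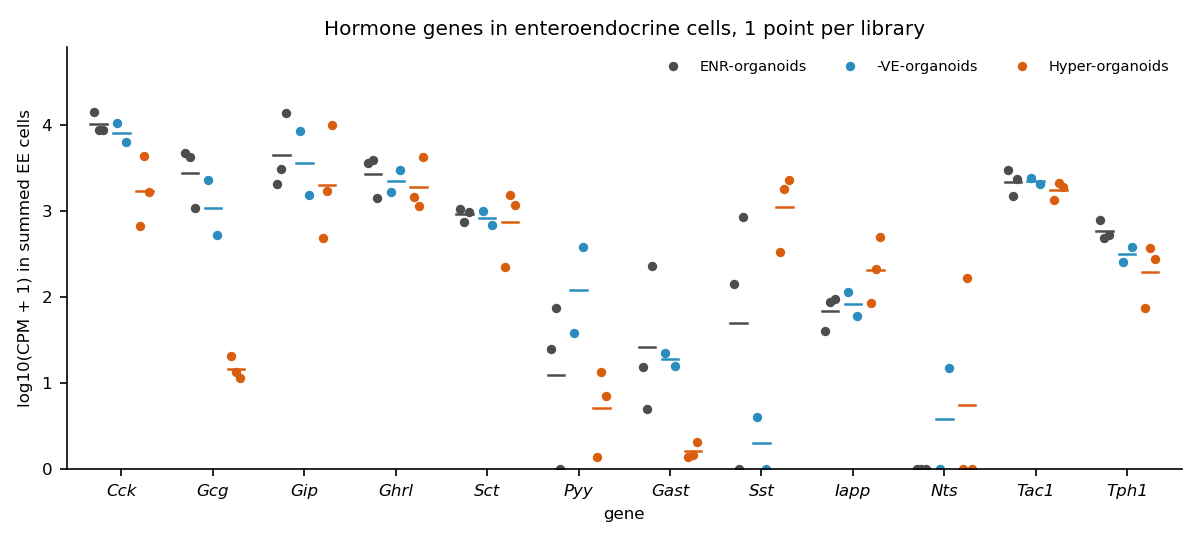
Level of 12 genes of hormones and amine synthesis in the summed EE cells of each library, as log10(CPM + 1) on the y axis, with genes on the x axis. Points are libraries, bars are means over libraries and colours are media. Gcg stands between 10.3 and 19.6 CPM in Hyper-organoids and at 518 CPM or more elsewhere, while Tac1, Sct and Ghrl overlap between media.

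All the hormones together took a smaller part of the RNA of EE cells in each Hyper- than in each ENR-organoid library, and the shares of cells holding a hormone overlapped. The 15 hormones that at least 1% of EE cells held in some library made up 2.81%, 1.95% and 2.81% of thinned UMIs in ENR-organoids, 2.20% and 1.5% in the 2 -VE-organoid libraries, and 0.413%, 1.15% and 1.90% in Hyper-organoids. The Hyper- and ENR-organoid libraries did not overlap (exact permutation test, p = 0.1, the least possible), and the Hyper- and -VE-organoid libraries did (exact permutation test, p = 0.4). Cells holding none of them were 25.8%, 41.2% and 43.6% in ENR-organoids and 50.5%, 36.0% and 28.2% in Hyper-organoids, which overlapped (exact permutation test, p = 0.9), and this does not show that the shares are equal. EE cells holding Neurog3, the factor that starts the endocrine program, carried a hormone in 29.4% to 51.5% of cases per library, and EE cells not holding it in 75.0% to 88.1%.

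Pax6, Etv1 and Neurod2 were among the endocrine transcription factors that were lower in Hyper-organoids. Of 27 tested, none was higher and 4 were lower between Hyper- and ENR-organoids, with a median log2 fold change of -0.53 against 0.00 over all genes, and 1 was lower against -VE-organoids. None was called by edgeR between -VE- and ENR-organoids (10 at an unadjusted p under 0.05, 1 called by DESeq2). Over all genes tested, 5.96% were called higher and 1.44% lower in Hyper- than in ENR-organoids, and 0.489% lower than in -VE-organoids. Neurog3 was at 431, 508 and 815 CPM in ENR-organoids, 733 and 683 CPM in -VE-organoids and 970, 1073 and 1036 CPM in Hyper-organoids. Hyper-organoid libraries were highest, with a log2 fold change of 0.81 from ENR-organoids (SE 0.20, edgeR adjusted p 0.0186) that is below 2-fold, and 42.3% to 56.0% of EE cells held it in Hyper- against 32.3% to 52.7% in ENR-organoids.

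Pax6, a paired-box factor of endocrine cells, was at 126, 99.2 and 95.1 CPM in ENR-organoids, 86.6 and 35.0 CPM in -VE-organoids and 9.39, 16.2 and 23.9 CPM in Hyper-organoids. The Hyper-organoid libraries were below all others, by a log2 fold change of -2.74 from ENR-organoids (SE 0.34, edgeR adjusted p 0.000507) and of -1.90 from -VE-organoids (SE 0.38, edgeR adjusted p 0.0142), a call that was lost without -VE-organoid replicate 1 (-1.14, edgeR adjusted p 0.115). Etv1, an ETS factor, was at 162, 138 and 63 CPM in ENR- and 27.8, 31.9 and 31.5 CPM in Hyper-organoids (log2 fold change -2.02, SE 0.27, edgeR adjusted p 0.00066), a call lost among EE cells holding Neurog3. Neurod2 was at 120, 126 and 159 CPM in ENR- and 70.5, 42.5 and 25.5 CPM in Hyper-organoids (-1.51, SE 0.27, edgeR adjusted p 0.00394), and without EE cells holding markers of another class its change was -0.51 and not called (edgeR adjusted p 0.239), nor was it called among EE cells not holding Neurog3 (edgeR adjusted p 0.0552). For Neurod1 the log2 fold change was -0.53 (SE 0.18, edgeR adjusted p 0.0716), and for Sox4, Insm1, Isl1 and Runx1t1 it lay between -0.34 and 0.13 with no call. Nkx2-2 and Fev were each at -0.94 (edgeR adjusted p 0.00189 and 0.0153), below 2-fold. Although Neurod1 was not called, the share of thinned EE cells holding it averaged 25.3% for Hyper-organoids against 46.4% for ENR-organoids. The libraries of these media did not overlap (exact permutation test, p = 0.1, the least possible, not adjusted). The -VE-organoid mean was 40.4%, and both libraries lay above every Hyper-organoid library (exact permutation test, p = 0.2, the least possible).

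Scg2 was lower in Hyper-organoids, and Chga and Chgb were not called. Of 28 genes of secretory granules and exocytosis tested, 2 were higher and 1 was lower between Hyper- and ENR-organoids (median log2 fold change -0.17, 11 at an unadjusted p under 0.05), 2 were higher and 1 lower against -VE-organoids (median 0.37, 14 at an unadjusted p under 0.05), and none was called by edgeR between -VE- and ENR-organoids (16 at an unadjusted p under 0.05, 2 called by DESeq2). The shares over all genes tested were 5.96% higher and 1.44% lower against ENR-organoids, and 3.52% and 0.489% against -VE-organoids. Chga was at 1959, 1668 and 1696 CPM in ENR-organoids, 802 and 901 CPM in -VE-organoids and 683, 2239 and 1734 CPM in Hyper-organoids, and Chgb at 19013, 12173 and 15942, at 11256 and 10478 and at 5644, 14062 and 11202 CPM. Neither was called. Scg2, a secretogranin, was at 407, 403 and 181 CPM in ENR-organoids, 265 and 170 CPM in -VE-organoids and 74.0, 74.9 and 92.8 CPM in Hyper-organoids, lower than in ENR-organoids (log2 fold change -2.05, SE 0.28, edgeR adjusted p 0.000724) and than in -VE-organoids (-1.43, SE 0.30, edgeR adjusted p 0.0171), where the call was lost without -VE-organoid replicate 1 or Hyper-organoid replicate 2 (edgeR adjusted p 0.109 and 0.0624). Pcsk1n, an inhibitor of prohormone convertase 1, was higher than in ENR-organoids by 1.02 (SE 0.26, edgeR adjusted p 0.0214) and Resp18, a granule protein, by 1.01 (SE 0.25, edgeR adjusted p 0.0181). The Pcsk1n call was lost without ENR-organoid replicate 2 or 3 or Hyper-organoid replicate 2 or 3 (edgeR adjusted p 0.0501 to 0.0896), and the Resp18 call without ENR-organoid replicate 1 or 2 or Hyper-organoid replicate 2 or 3 (edgeR adjusted p 0.0525 to 0.0862). With the replicate number as a block the Resp18 change was 0.99, under 2-fold. Ptprn, a receptor phosphatase of granules, was higher than in -VE-organoids by 2.20 (SE 0.35, edgeR adjusted p 0.0044).

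Of 21 genes of nutrient sensing and excitability, edgeR called Ffar1 and DESeq2 called 2 genes between Hyper- and ENR-organoids (median log2 fold change of the list -0.30, 5 at an unadjusted p under 0.05). By edgeR, 5.96% of all genes tested were higher and 1.44% lower in that comparison. Ffar1, a receptor for long-chain fatty acids, was at 68.5, 49.2 and 50.2 CPM in ENR-organoids, 30.3 and 21.1 CPM in -VE-organoids and 3.13, 2.77 and 5.97 CPM in Hyper-organoids. The media did not overlap, and the log2 fold change was -3.85 from ENR-organoids (SE 0.29, edgeR adjusted p 2.52e-05) and -2.71 from -VE-organoids (SE 0.33, edgeR adjusted p 0.000983). Ffar4, another receptor for long-chain fatty acids, was higher than in -VE-organoids by 1.14 (SE 0.27, edgeR adjusted p 0.0284), and the call was lost with DESeq2 (adjusted p 0.0608) and without -VE-organoid replicate 1 or 2 or Hyper-organoid replicate 2 or 3 (edgeR adjusted p 0.0629 to 0.141). None of the 21 was called between -VE- and ENR-organoids by edgeR or DESeq2, with 5 at an unadjusted p under 0.05.

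Cell-cycle exit genes changed in part. Cdkn1c, the p57 inhibitor that marks endocrine progenitors leaving the cycle, was at 487, 545 and 482 CPM in ENR-organoids, 464 and 337 CPM in -VE-organoids and 98.6, 97.0 and 146 CPM in Hyper-organoids. Hyper-organoid libraries were the lowest, by a log2 fold change of -2.15 from ENR-organoids (SE 0.18, edgeR adjusted p 4.93e-05) and -1.82 from -VE-organoids (SE 0.19, edgeR adjusted p 0.000506). It was held by 37.1%, 52.9% and 29.1% of EE cells in ENR-organoids, 30.4% and 28.6% in the 2 -VE-organoid libraries, and 5.49%, 2.00% and 10.3% in Hyper-organoids, against at most 0.0895% of stem cells. In the stem cells it went the other way, with means of 6.36 CPM in ENR- and 21.3 CPM in Hyper-organoids. Of the 12 genes of cell-cycle exit and Notch signalling, Cdkn1c was the 1 called lower and Cdkn2a and Dll3 were called higher (median log2 fold change -0.06, with 5.96% of all genes tested called higher and 1.44% lower). Dll3, a Notch ligand, was at 5.77, 2.00 and 1.07 CPM in ENR- and 26.2, 13.4 and 39.6 CPM in Hyper-organoids (3.04, SE 0.65, edgeR adjusted p 0.0105), a call lost among EE cells not holding Neurog3. Cdkn2a, which encodes p16 and p19ARF, had 1 UMI in ENR- and 175 UMIs in Hyper-organoids, a ratio per UMI of 96.2 (95% exact interval 17.0 to 3820, counting error only; edgeR adjusted p 0.00173). None of 12 cell cycle genes was called in any comparison by edgeR or DESeq2, with 1 or 2 of them at an unadjusted p under 0.05. Of 10 genes of the dissociation stress response, the immediate early genes Fos and Junb were lower between Hyper- and ENR-organoids (-1.37 and -1.11, edgeR adjusted p 0.0251 and 0.0148) and none was higher. The Fos call was lost with DESeq2 (adjusted p 0.0641) and without ENR-organoid replicate 1 or 3 or Hyper-organoid replicate 2 or 3 (edgeR adjusted p 0.0522 to 0.0931), and the Junb call without ENR-organoid replicate 1 or 3 or Hyper-organoid replicate 2 (edgeR adjusted p 0.0501 to 0.0625).

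Of the neuronal genes, 9 rose in Hyper- against ENR-organoids, among them Stmn2, Stmn3, Uchl1 and Nefl. Of 18 tested, 9 were higher and 1 lower between Hyper- and ENR-organoids (median log2 fold change 1.40 against 0.00 over all genes), 11 were higher and none lower against -VE-organoids (median 1.68), and none was called by edgeR or DESeq2 between -VE- and ENR-organoids (median 0.06, 8 at an unadjusted p under 0.05). Over all genes tested, 5.96% were higher against ENR- and 3.52% against -VE-organoids. The members of the list were chosen with earlier results of these data known, so its counts are no independent evidence. Stmn2, a tubulin-binding protein of growing axons, had no UMI in any ENR-organoid library, 0.606 and 0 CPM in -VE-organoids and 18.8, 32.8 and 25 CPM in Hyper-organoids. That is at least 30.2-fold higher than in ENR-organoids against a floor of 3 counts over the group (edgeR adjusted p 0.000275). It had a UMI in 7.69%, 14.0% and 12.8% of thinned EE cells of Hyper-organoids and in at most 0.0895% of stem cells.

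Its relative Stmn3 was at 3.61, 5.99 and 1.07 CPM in ENR-organoids, 6.06 and 2.58 CPM in -VE-organoids and 63.8, 56.8 and 69.4 CPM in Hyper-organoids (log2 fold change from ENR-organoids 4.00, SE 0.33, edgeR adjusted p 4.1e-05), with a UMI in 34.1% to 43.6% of Hyper-organoid EE cells. Uchl1, a neuronal deubiquitinase, was at 5.05, 1.33 and 3.21 CPM in ENR- and 48.1, 63.8 and 43.4 CPM in Hyper-organoids (4.01, SE 0.34, edgeR adjusted p 4.93e-05). Nefl, the light neurofilament, was at 65.6, 20.0 and 49.2 CPM in ENR-, 138 and 54.6 CPM in -VE- and 266, 237 and 310 CPM in Hyper-organoids (2.61, SE 0.37, edgeR adjusted p 0.001). The Hyper-organoid libraries were above every other library for all 4 of these genes. Of all genes tested, 33.3% did not overlap between Hyper- and ENR-organoids. Crmp1, Ina, Mapt, Ncam1 and Syn1 were also called, with log2 fold changes of 2.85, 1.42, 1.65, 4.46 and 2.20. Celf3, a neuronal splicing factor, was lower by the same test (-1.12, SE 0.20, edgeR adjusted p 0.00393), its change falling to -0.99, under 2-fold, without Hyper-organoid replicate 2, and Tubb3 had -0.55 with no call. Against -VE-organoids the calls of Elavl3, Kif5c, Mapt, Nefl, Ncam1, Ina and Syn1 were lost without -VE-organoid replicate 2, among other single libraries for some of them (edgeR adjusted p without it 0.0513 for Ina to 0.272 for Nefl), and the Nefl call with DESeq2 (adjusted p 0.161).

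The genes with the largest changes by the naming rule (called, not overlapping between groups, and at least 20 CPM in the higher group) included many at 0 in ENR-organoids, which a ranking by fold favours: 7 of the 10 largest rises had no UMI in EE cells there. Basp1 had no UMI in ENR-organoids, 0.606 and 1.55 CPM in -VE-organoids and 75.2, 46.7 and 81.4 CPM in Hyper-organoids, at least 81.1-fold higher than in ENR-organoids (edgeR adjusted p 4.55e-05), and had a UMI in 26.0% to 42.9% of thinned EE cells and 2.00% to 3.58% of thinned stem cells of Hyper-organoids. Itm2a, a membrane protein gene, had no UMI in the 5 ENR- and -VE-organoid libraries and 58.3, 51.3 and 53.7 CPM in Hyper-organoids, at least 65.8-fold higher than in ENR-organoids (edgeR adjusted p 2.52e-05) and at least 66.6-fold higher than in -VE-organoids (edgeR adjusted p 7.86e-05). It had a UMI in 33.0% to 37.2% of thinned EE cells and 14.7% to 21.3% of thinned stem cells of Hyper-organoids.

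Bex4, an X-linked gene of a family with close copies, was at 0, 2.66 and 3.21 CPM in ENR-organoids, 0 CPM in both -VE-organoid libraries and 140, 228 and 182 CPM in Hyper-organoids (log2 fold change from ENR-organoids 6.59, SE 0.40, edgeR adjusted p 1.75e-05). Gpc3, a glypican, was at least 44.7-fold higher than in ENR-organoids, the hedgehog ligand gene Shh at least 31.3-fold, and the antisense gene 2610016A17Rik at least 27.8-fold. Meg3, an imprinted noncoding RNA, was at least 106-fold higher (edgeR adjusted p 0.0155), and differed widely within the medium, at 14.1, 91.0 and 188 CPM. It had a UMI in 5.49%, 5.00% and 14.1% of thinned EE cells of Hyper-organoids, its richest cell held 33.2% to 50.0% of the library's UMIs, and the call was lost without ENR-organoid replicate 1 (edgeR adjusted p 0.0543). Pla2g1b, a secreted phospholipase, had 2 UMIs in ENR- and 349 in Hyper-organoids, a ratio of 95.9 (95% exact interval 26.3 to 795, counting error only; edgeR adjusted p 0.000136).

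The largest falls beside Gcg and Gast were in Ooep, Ffar1, Fabp1, Dmbt1, Olfm4, Slc6a19, Id3 and Pax6. Ooep, best known from oocytes, was at 35.3, 81.8 and 74.8 CPM in ENR-organoids, 55.1 and 17.0 CPM in -VE-organoids and 1.17, 0.924 and 2.71 CPM in Hyper-organoids (log2 fold change from ENR-organoids -5.31, SE 0.59, edgeR adjusted p 0.000212). Without EE cells holding markers of another class the Ooep change was -2.91 and not called (edgeR adjusted p 0.224). Slc6a19, a neutral amino acid transporter of enterocytes, was at 64.2, 49.2 and 73.7 CPM in ENR- and 4.31, 6.93 and 10.3 CPM in Hyper-organoids (-3.14, SE 0.40, edgeR adjusted p 0.000515). Both genes were also lower than in -VE-organoids, by -4.47 and -2.57, and without the same cells the Ooep change was -4.71 and not called (edgeR adjusted p 0.0728). Id3, a target of BMP signalling, was at 49.0, 22.6 and 19.2 CPM in ENR-, 4.85 and 6.70 CPM in -VE- and 5.87, 4.16 and 3.26 CPM in Hyper-organoids (-2.75 from ENR-organoids, SE 0.40, edgeR adjusted p 0.00125), so that -VE- and Hyper-organoids overlapped. Olfm4, the crypt base marker, varied widely in Hyper-organoids, at 60.7, 4.62 and 1.09 CPM, and stood at 270, 222 and 138 CPM in ENR-organoids (-3.15, SE 0.78, edgeR adjusted p 0.0202), and lost its call without any of ENR-organoid replicates 1 and 2 and Hyper-organoid replicates 2 and 3 (edgeR adjusted p 0.0502 to 0.0695), and with DESeq2 (adjusted p 0.103).

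**Figure D4:**
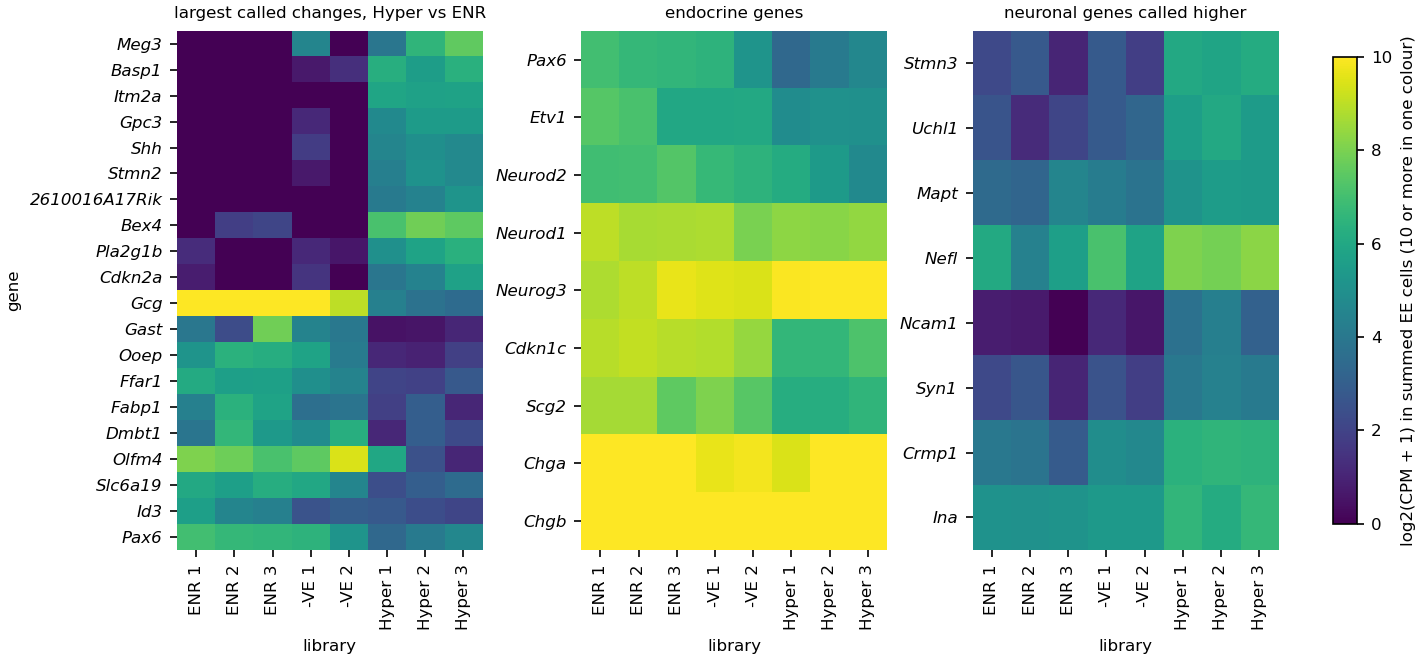
log2(CPM + 1) in the summed EE cells (colour) of the 8 libraries (columns) for genes (rows) in 3 panels: the largest called changes between Hyper- and ENR-organoids, endocrine genes, and neuronal genes called higher. Values of 10 or more share a colour. The Hyper-organoid columns are brighter than the other 5 for Basp1, Itm2a, Bex4 and Stmn3 and darker for Gcg, Ooep, Ffar1, Pax6 and Cdkn1c.

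Some of these rises were shared by other epithelial cells and some were not. In goblet cells, raw levels averaged over libraries went from 0 to 34.7 CPM for Itm2a, 0.131 to 213 CPM for Bex4 and 1.32 to 54.4 CPM for Gpc3 between ENR- and Hyper-organoids, and stem cells of Hyper-organoids had 23.3, 240 and 59.0 CPM. Stmn2, Stmn3 and Meg3 were absent or nearly so in goblet and stem cells of Hyper-organoids, with at most 0.0672 CPM on average. Uchl1 and Nefl went from 0 CPM in goblet cells of ENR-organoids to 3.32 and 15.5 CPM in those of Hyper-organoids, and from 3.31 and 46.3 CPM to 50.9 and 265 CPM in EE cells.

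A class-by-medium interaction asked whether the Hyper-ENR change differed between classes. Against goblet cells 619 of 12326 genes were called by edgeR (5.02%), with the EE log2 change minus the goblet log2 change above 0 for 148 and below 0 for 471, and against all other cells 1411 of 16191 (8.71%), above 0 for 385 and below 0 for 1026. The sign does not say in which class the change was larger: Cdkn1c was below 0, and its raw means went from 521 to 112 CPM in EE cells and from 7.89 to 18.3 CPM in goblet cells. Without ENR-organoid replicate 1 the 619 became 373. Some genes below 0 had means near 0 CPM in goblet cells of ENR-organoids. Tac1 was at 0.0653 CPM in goblet cells of ENR-organoids and 18.8 CPM in those of Hyper-organoids, while in EE cells it was at 2327 and 1726 CPM. Peg3, an imprinted zinc finger gene, was at 0 and 35.0 CPM in goblet cells and 78.7 and 140 CPM in EE cells. For Nefl, at 0 CPM in goblet cells of ENR-organoids, the difference was below 0 and called (edgeR adjusted p 0.000292), and for Uchl1 it was below 0 and not called (edgeR adjusted p 0.299). Stmn2 and Stmn3, at a mean of 0 CPM in goblet cells of ENR- and Hyper-organoids, were not called by the interaction with goblet cells. Of 18 neuronal genes tested against goblet cells, 1 was called above 0 and 6 below 0 (median -1.45), and of 20 tested against all other cells, 2 above 0 and 9 below 0 (median -1.05). Neurog3 was at 22.8 CPM in goblet cells of ENR-organoids and 99.5 CPM in those of Hyper-organoids.

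Lyz1, Ang4 and Spink4, products of Paneth and goblet cells, were higher in the summed EE cells of Hyper- than of ENR-organoids. Of 7 Paneth markers, 4 were called higher between Hyper- and ENR-organoids (median log2 fold change 1.91), none against -VE-organoids by edgeR or DESeq2 (1 at an unadjusted p under 0.05), and 1 between -VE- and ENR-organoids. Over all genes tested, 5.96% were called higher in Hyper- and 0.118% in -VE-organoids, each against ENR-organoids. Lyz1, lysozyme of Paneth cells, was at 396, 496 and 329 CPM in ENR-organoids, 2705 and 3766 CPM in -VE-organoids and 4775, 652 and 2007 CPM in Hyper-organoids (log2 fold change from ENR-organoids 2.60, SE 0.52, edgeR adjusted p 0.00718). Ang4, an antimicrobial ribonuclease, was at 15.9, 37.9 and 12.8 CPM in ENR-, 305 and 251 CPM in -VE- and 435, 179 and 503 CPM in Hyper-organoids. It was called between Hyper- and ENR-organoids (4.00, SE 0.42, edgeR adjusted p 0.000181) and also in -VE- against ENR-organoids (3.58, edgeR adjusted p 0.00998, or 0.11 without ENR-organoid replicate 1), and 22.6% to 80.9% of its UMIs in a Hyper-organoid library came from 1 cell.

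Of 5 goblet markers tested, Spink4 was higher than in ENR-organoids in Hyper-organoids (2.73, SE 0.28, edgeR adjusted p 0.000144) and in -VE-organoids (2.02, edgeR adjusted p 0.0203, and 0.0809 to 0.131 without ENR-organoid replicate 1 or 3 or -VE-organoid replicate 2). It was at 493, 635 and 377 CPM in ENR-, 2066 and 2025 CPM in -VE- and 2184, 3001 and 4838 CPM in Hyper-organoids. In stem cells the raw mean of Lyz1 was 72.7 CPM in ENR- and 16.8 CPM in Hyper-organoids and that of Spink4 92.5 and 33.4 CPM. The part of RNA from other cells in the EE levels was not tested. EE cells with markers of another class were 54.1% to 72.2% of EE cells in ENR-organoids, 76.4% and 83.6% in -VE-organoids and 80.4% to 87.2% in Hyper-organoids. These shares were counted without thinning. The median UMIs per EE cell were 18192.5, 16205 and 14295 in ENR-, 22333 and 15811 in -VE- and 24908, 18209 and 22108 in Hyper-organoids. How far the shares follow depth was not tested. Without EE cells with markers of another class, the log2 fold changes between Hyper- and ENR-organoids were -0.330 for Lyz1 and -0.40 for Spink4. Neither was called, but both are among the markers by which the cells were left out, which limits their levels in the cells that remain. Of 5 enterocyte markers tested, 3 were lower between Hyper- and ENR-organoids, among them Fabp1 and Fabp2 (-3.82 and -1.81). Of all genes tested, 5.96% were called higher and 1.44% lower in that comparison.

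Some regeneration markers of the study were higher in EE cells of Hyper-organoids, at low levels. Of 6 tested, 4 were called higher between Hyper- and ENR-organoids (median log2 fold change 3.46), 3 against -VE-organoids, and none between -VE- and ENR-organoids by edgeR or DESeq2 (1 at an unadjusted p under 0.05). Basp1, with its levels given above, is among these 4. Over all genes tested, 5.96% were called higher against ENR- and 3.52% against -VE-organoids. The list joins markers that the study took from earlier work with Tead2, which it singled out in these cultures. The study screened for its Hyper medium by a rise in Clu, Ly6a (Sca1), Anxa1 and Reg3b. The direction of these markers and of Tead2 in Hyper-organoids is therefore no independent evidence. Reg3g, an antimicrobial lectin, was at 0.721, 3.33 and 0 CPM in ENR-organoids, 0.606 and 1.03 CPM in -VE-organoids and 30.9, 91.5 and 65.1 CPM in Hyper-organoids (log2 fold change from ENR-organoids 5.25, SE 0.61, edgeR adjusted p 0.000293). Reg3b had 17.6, 38.4 and 13.0 CPM in Hyper-organoids (4.08, SE 0.66, edgeR adjusted p 0.00222), where stem cells had a mean of 412 CPM, and the part of RNA from other cells was not tested. Clu, the marker of revival stem cells, was at 2.16, 2.00 and 3.21 CPM in ENR- and 5.48, 20.3 and 27.1 CPM in Hyper-organoids (2.83, SE 0.64, edgeR adjusted p 0.0127), a call that was lost without ENR-organoid replicate 1 or 2 (edgeR adjusted p 0.0576 and 0.0544). Lgr5, the stem cell receptor, was at 16.6, 12 and 4.27 CPM in ENR-, 15.8 and 38.1 CPM in -VE- and 79.9, 50.8 and 48.3 CPM in Hyper-organoids (2.37, SE 0.39, edgeR adjusted p 0.00255), against a stem cell mean of 149 CPM in Hyper-organoids. The Lgr5 call was lost among EE cells not holding Neurog3. Ly6a was not called (1.57) but was with the replicate number as a block (1.43, edgeR adjusted p 0.0248), and Anxa1 did not pass the filter on low counts.

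**Figure D5:**
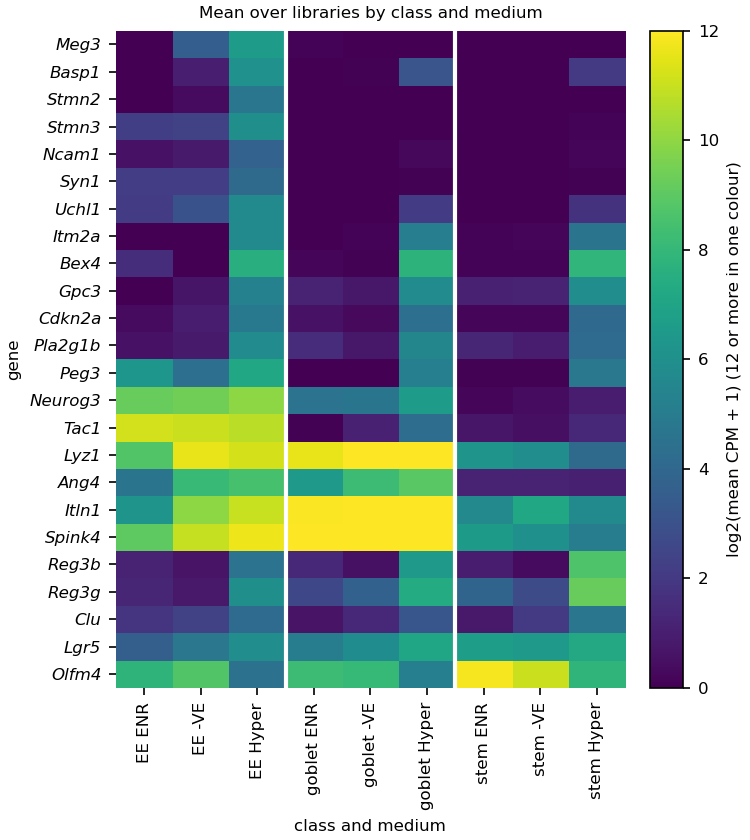
log2(mean CPM + 1) (colour) in EE, goblet and stem cells of the 3 media (columns, means over libraries) for 24 genes (rows). Values of 12 or more share a colour. Stmn2, Stmn3 and Meg3 are bright in EE cells of Hyper-organoids and near 0 in goblet and stem cells, Itm2a, Bex4 and Gpc3 are bright in all 3 classes of Hyper-organoids, and Reg3b and Reg3g are brighter in stem than in EE cells.

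The media of Hyper- and -VE-organoids differed in VPA and EPZ6438, but no -VE-organoid library came from primary crypts as Hyper-organoid replicate 3 did. Beside Bex4, Itm2a, Sst, Stmn2 and 2610016A17Rik, the largest rises by the naming rule were in Armcx2, Zfhx4, Tceal8, Cyfip2 and Wfdc2. Sst meets the rule through 1 cell per Hyper-organoid library and does not allow a comparison of media. Zfhx4, a homeodomain zinc finger gene, had 1 UMI in -VE- and 231 in Hyper-organoids, a ratio of 129 (95% exact interval 22.8 to 5098, counting error only; edgeR adjusted p 0.000351). Tceal8 was at 0.606 and 1.03 CPM in -VE-organoids and 86.9, 85.0 and 87.4 CPM in Hyper-organoids (edgeR adjusted p 7.18e-05), close to equal in the 3 Hyper-organoid libraries. Beside Gcg, Pyy, Ooep, Olfm4, Dmbt1, Ffar1 and Slc6a19, falls were largest in Gsta3, a glutathione transferase, Prss32, a serine protease, and Sult6b2, a sulfotransferase, with log2 fold changes of -4.73, -2.22 and -2.03, and the Sult6b2 call was lost without -VE-organoid replicate 1 (edgeR adjusted p 0.0986) and the Prss32 call without -VE-organoid replicate 2 or Hyper-organoid replicate 2 or 3 (edgeR adjusted p 0.0663 to 0.339). Without -VE-organoid replicate 2 the Olfm4 and Dmbt1 calls were lost too (edgeR adjusted p 0.13 and 0.189), as was the Olfm4 call with DESeq2 (adjusted p 0.0696) and the Dmbt1 call without Hyper-organoid replicate 3 (edgeR adjusted p 0.062).

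The change of medium without these compounds called 21 genes, 18 of which met the naming rule. Acot7, an acyl-CoA thioesterase, was at 44.7, 47.2 and 52.4 CPM in ENR-organoids and 161 and 138 CPM in -VE-organoids (log2 fold change 1.64, SE 0.16, edgeR adjusted p 0.00408), with 210, 158 and 176 CPM in Hyper-organoids. Mt3, a metallothionein, was at 18.8, 18.6 and 17.1 CPM in ENR-, 106 and 53.1 CPM in -VE- and 203, 144 and 144 CPM in Hyper-organoids (2.11, SE 0.30, edgeR adjusted p 0.0203). Gstt1, a glutathione transferase, was at 547, 273 and 575 CPM in ENR- and 68.5 and 103 CPM in -VE-organoids (-2.43, SE 0.30, edgeR adjusted p 0.00998). The -VE- and ENR-organoid libraries did not overlap for these genes, as the naming rule requires. Itln1, Ang4, Igfbp4, Ckb, Spink4, Cyba, Pglyrp1 and Car9 were the other rises by the rule and Il18r1, Amigo2, Fxyd6, Lhx1, Hist1h1c, Nptx2 and Pak3 the other falls, of which Amigo2 and Lhx1 lost their call with the replicate number as a block (edgeR adjusted p 0.0522 for both). Each of these 15 lost its call without at least 1 single library, Il18r1 without any ENR- or -VE-organoid library and Itln1 and Igfbp4 without any ENR-organoid library, and Igfbp4 also with RLE size factors, a filter of 10 CPM and a fit of the 2 groups alone (edgeR adjusted p 0.0502, 0.0574 and 0.0757). Without ENR-organoid replicate 1 the count of 21 became 3, and without -VE-organoid replicate 2 it became 5, while without -VE-organoid replicate 1 it became 64. Acot7 kept its call without any single library, but lost it among EE cells not holding Neurog3. Mt3 lost its call without any ENR-organoid library (edgeR adjusted p 0.0645 to 0.127) and Gstt1 without ENR-organoid replicate 1 (0.0528). Without EE cells holding markers of another class, 17 of the 21 calls could be tested and 4 were kept. Amigo2, Car9, Cyba, Fxyd6, Hist1h1c, Igfbp4, Mt3, Nptx2, Pak3, Pglyrp1 and Spink4 lost their call then.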

How the data were processed

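Single cells of organoids were profiled by 10x 3' V3 sequencing. The authors aligned reads to mm10 and counted UMIs with Cell Ranger (3.0.0 in the methods and processing notes, 3.1.0 in the matrix header), and clustered and annotated cells with Seurat 3.1.4. The deposited counts are raw UMI counts per gene and cell, and the deposited annotation gave each cell's class and library. The stated filter keeps cells with 1500 genes or more and mitochondrial reads of 25% or less. No doublet caller was run here. The colon libraries and Vip were not analysed here, and the values of some called list members are not reported here.

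UMIs were summed over the EE cells of each library and tested with edgeR 4.0.16 in R 4.3.3 (TMM factors, quasi-likelihood test, all 8 libraries in 1 fit, Benjamini-Hochberg adjustment over 11050 genes after its filter on low counts). Levels are CPM scaled by TMM unless called raw. The SE is the log2 fold change divided by the root of F. DESeq2 1.42.0 was an alternative. Shares of cells were compared by exact permutation tests over libraries, after thinning each cell to 10000 UMIs where genes were held. Stem cells were thinned alike. Python 3.11.15, numpy 2.4.6, scipy 1.17.1 and pandas 2.3.3 were used. Intervals and floors cover counting error only. The tests were tried on simulated data with known changes.

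Genes were named by rule: per comparison the 10 largest rises and 10 largest falls among called genes whose libraries did not overlap and whose higher group had at least 20 CPM, members of gene lists that were called or had a mean of at least 100 CPM, 10 genes in any case, and the 5 largest interactions in each direction. The members and lists were chosen with earlier results of these data known. Alternatives were other size factors, other filters, thinned cells, cells without markers of other classes, fits of the 2 groups compared, a replicate block and leaving out each library.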

Additional observations from a re-analysis of the deposited data

Results flagged for a closer look

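The change between Hyper- and ENR-organoids differed between EE and goblet cells for 619 genes and between EE and all other cells for 1411 genes, by edgeR's test of the interaction. Among called genes with at least 20 CPM in EE cells and no overlap, the largest differences from goblet cells, taken as the EE change minus the goblet change on the log2 scale, were 13.31 for Meg3, 4.59 for Itln1, 3.53 for Defa24, 3.35 for Aoc1 and 3.12 for Sis on the higher side. Meg3 had no UMI in EE cells of ENR-organoids, so its fitted difference depends on the prior count and is no bound. Meg3 was also called against all other cells, a call lost without ENR-organoid replicate 1 and with a filter of at least 10 CPM in 2 sums (edgeR adjusted p 0.284 and 0.054), and lost its call against goblet cells without ENR-organoid replicate 1 or Hyper-organoid replicates 2 or 3. On the lower side they were -9.10 for Peg3, -8.53 for Gnai1, -8.07 for Nfasc, -7.68 for Ssbp2 and -7.61 for Tac1. Goblet cells of ENR-organoids had a raw mean of 0 CPM for Peg3, Gnai1, Nfasc and Ssbp2 and 0.0653 CPM for Tac1, so these fitted differences depend on the prior count and are no bounds.

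Sis, the sucrase of enterocytes, had raw means of 29.9 CPM in ENR- and 0.879 CPM in Hyper-organoids in goblet cells and was at 348 and 95.7 CPM in EE cells. Defa24, a Paneth defensin, was at 23689 and 9323 CPM in goblet cells and 802 and 2766 CPM in EE cells, so its means moved in opposite directions.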

How the results depend on the processing

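Of 2465 values of 138 single-gene results under alternatives, 2164 kept direction and side of the threshold, 274 lost the call, 8 gained it, 11 moved and 8 turned direction. Leaving out EE cells with markers of another class turned Hyper against ENR for Cck (0.178), Iapp (-1.79), Lyz1 (-0.330), Mmp7 (-1.94), Spink4 (-0.40) and Sst (-8.67, edgeR adjusted p 0.00383), and Hyper against -VE for Resp18 (-0.163), and Cck turned among cells holding Neurog3 (0.837). Lyz1, Mmp7 and Spink4 are among the markers that chose the cells left out. The causes were not tested.

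The 818 genes called between Hyper- and ENR-organoids became 1256 with no filter on low counts and 193 without cells with markers of another class, and the share of higher calls went from 80.6% to 60.6% in the latter. The 443 against -VE-organoids became 893, 274 with thinned cells and 24. The 21 between -VE- and ENR-organoids became 268, 43 and 6, and 54 with DESeq2. Splits chosen after seeing the data gave 539, 228 and, for cells not holding Neurog3, 403, 182 and 1, and 51 for -VE- against ENR-organoids without cells over 40000 UMIs. Leaving out 1 library gave 563 to 894, 134 to 465 and 3 to 64 genes, 373 to 661 for the goblet interaction, and 2 to 6 for the 2 hormones whose shares of holders did not overlap, which were 5 without thinning.

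With the replicate number as a block the counts were 835, 377 and 30, and the EE share differences were 0.633, 0.680 and -0.599 percentage points. The block took away the calls of Resp18 (Hyper against ENR), Fosb (Hyper against -VE) and Amigo2 and Lhx1 (-VE against ENR). The numbers follow the series names in the labels, which do not say whether a series shared an animal or a day. Deviations of same-numbered libraries correlated at -0.0327, 0.0687 and 0.151 for ENR- with Hyper-organoids, 0.154 and 0.249 for ENR- with -VE-organoids and -0.159 and 0.125 for -VE- with Hyper-organoids, which did not show a pairing throughout. With 61 to 107 EE cells per library, rare hormones rest on single cells.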
